A study of Drosophila melanogaster with 18 samples.

Results

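The genes described here are the 72 mitochondrial ribosomal protein genes of the fly whose symbols begin with *mRpL* (46 genes, large subunit) or *mRpS* (26 genes, small subunit) followed by a number, out of 16624 genes in the table. Membership was decided by symbol alone, and no value entered the rule. Subunits are assigned by symbol throughout. RNA was sequenced from the 2nd antennal segment of *Drosophila* and so from Johnston's organ (JO), the organ of hearing inside it. The flies were untreated virgins of Canton-S, a wild-type laboratory strain. The 18 libraries (CT01 to CT18) come from females aged 1, 5, 25 or 50 days and from males of these ages or of 10 days, and each of the 9 combinations has 2 libraries. Each library is a pool of dissected segments, and nothing in the sources used here says whether the libraries of a group came from separate cohorts, so p-values measure the spread between these libraries, which may be technical. Day 10 holds males only. Reads in genes numbered 5815182 to 14315927 per library (median 12194186), and the lowest were the male day 25 libraries, CT11 (5815182) and CT12 (6414483).

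Mitochondria carry their own ribosome, which makes the few proteins that the mitochondrial genome encodes, all of them subunits of the respiratory chain and ATP synthase. Its 2 ribosomal RNAs come from the mitochondrial genome, whereas all of its proteins come from nuclear genes, are made in the cytosol and are imported. Of these proteins, some have relatives in the bacterial ribosome and keep the bacterial number, and others occur only in mitochondria. Among the 72 genes, 44 belong to bacterial families (29 large, 15 small) and 28 to families of mitochondria. Mechanosensory neurons, like other neurons, depend strongly on respiration.

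Values are given as normalised reads, that is, reads counted per gene by the authors and divided by 1 size factor per library. All 7 JO marker genes were present in every library, for example *nompC*, a mechanosensory channel of hearing, at 491 to 967 and *iav*, a TRP channel of chordotonal neurons, at 663 to 1442. At day 50, CT16 and CT18 each held the transcripts that mark both sexes. CT16, labelled male, had 21999 of *roX1*, the male dosage compensation RNA, against 14039 to 34078 in the other male libraries. It had 25444 of the yolk protein transcript *Yp1*, against 1944 in CT15, the other male library of day 50, and 94.3 to 184 in the younger males. CT18, labelled female, had 16418 of *roX1*, against 395 to 1118 in the other female libraries, and 19045 of *Yp1*, against 16194 to 24388 in the other female libraries of days 25 and 50. Most main counts and medians of the 72 genes by limma that rest on day 50 are therefore given with and without both libraries. The male day 50 library then left is CT15, whose *Yp1* was above that of the younger males. A mean over all 4 day 50 libraries does not depend on which of them is called male or female.

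The 72 genes were expressed at moderate levels and all were measured in every library. Mean levels over the 18 libraries ran from 86.8 (*mRpS24*) to 1213 normalised reads (*mRpS5*), with a median of 338, and the lowest value in any library was 46.6. Per kb of exon, which allows genes to be compared, the median level was 413, against 93.7 for all genes tested and 3162 for the cytosolic ribosomal proteins. All 72 genes passed the filter used for testing, that is, 2 or more libraries with a value of 10 or more. Together they took 0.196% to 0.290% of the reads in genes.

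The highest levels per kb belonged to *mRpL33* (935), *mRpL55* (879) and *mRpL27* (863). *mRpL33* and *mRpL27* are relatives of bacterial L33 and L27, the second of which reaches the peptidyl transferase centre in bacteria, and *mRpL55* is of a mitochondrial family. *mRpL33* also varied least, from 254 to 399 normalised reads over the 18 libraries, a ratio of 1.57 between the highest and the lowest library. *mRpL55* ranged from 252 to 506 over the libraries. *mRpL27* averaged 1004 ± 179 at day 1, 687 ± 98.0 at day 5, 723 ± 203 at day 25 and 806 ± 57.2 at day 50 (SD, n = 4 each). The lowest levels per kb were those of *mRpS24* (145), a relative of bacterial S3 at the entrance of the mRNA channel despite its number, *mRpS9* (146), whose bacterial relative reaches the tRNA in the P site, and *mRpL11* (157), which lies at the base of the stalk that binds translation factors. The 3 ranged over 46.6 to 142, 120 to 299 and 70.0 to 175 normalised reads. Levels per kb divide by the whole exon length, of which *mRpS24* shares 55.3% and *mRpS9* 25.1% with another gene. How reads in shared stretches were assigned is not known, so the low ranks of these genes are uncertain. Across the 72 genes the ratio of the highest to the lowest library had a median of 2.23 and was largest for *mRpS14* (4.92), from 210 in a female library of day 25 to 1034 in a female library of day 1.

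**Figure D1:**
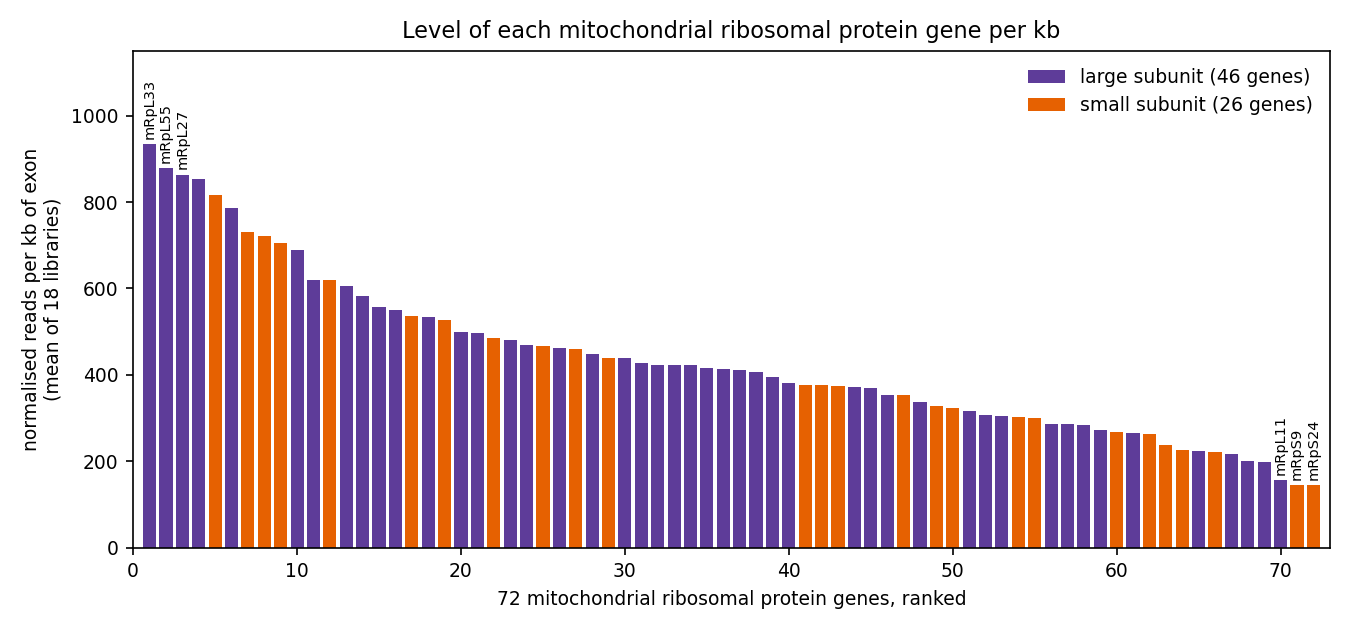
Mean level of each of the 72 genes over the 18 libraries, in normalised reads per kb of exon (y axis), ranked from highest to lowest (x axis) and coloured by subunit. Levels fall from 935 (*mRpL33*) to 145 (*mRpS24*) around a median of 413, and both subunits are spread over the whole range. Exon length includes stretches shared with other genes.

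The median level per kb was 419 for the 46 large subunit genes and 375 for the 26 small subunit genes. The summed level per kb of the large subunit was 1.82 to 2.08 times that of the small subunit over the 18 libraries. The ratio was 2.02 to 2.08 in the 4 libraries of day 1, 1.82 to 1.87 in the 4 of day 5, 1.85 and 1.91 in the 2 of day 10, 1.82 to 2.01 in the 4 of day 25 and 1.82 to 1.96 in the 4 of day 50. By this ratio of sums the 4 libraries of day 1 stood above all the others, which was not tested. The ratio of the medians did not separate them, with 1.07 to 1.28 at day 1 and, for example, 1.25 in CT15 (day 50) and 1.22 in CT09 (day 10).

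Libraries of 1 group often differed in most of these genes in the same direction, so the genes are not independent of each other. In 7 of the 9 pairs of libraries with the same age and sex, 52 or more of the 72 genes stood on the same side, for example 64 of 72 higher in CT02 than in CT01 (males, day 1) and 62 of 72 higher in CT08 than in CT07 (females, day 5). In the males of days 5 and 10 the pairs split 36 to 36. The median difference between the libraries of a pair was at most 0.36 on the log2 scale, in the females of day 1, where CT03 was above CT04. The median level of the 72 genes relative to their own means was lowest in CT14 (-0.39, female, day 25), CT11 (-0.33, male, day 25) and CT07 (-0.31, female, day 5), and highest in CT18 (0.33, female, day 50) and CT03 (0.31, female, day 1). At day 50 CT16 (0.16) and CT18 (0.33) were each above the other library of their group, CT15 (-0.11) and CT17 (0.10).

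**Figure D2:**
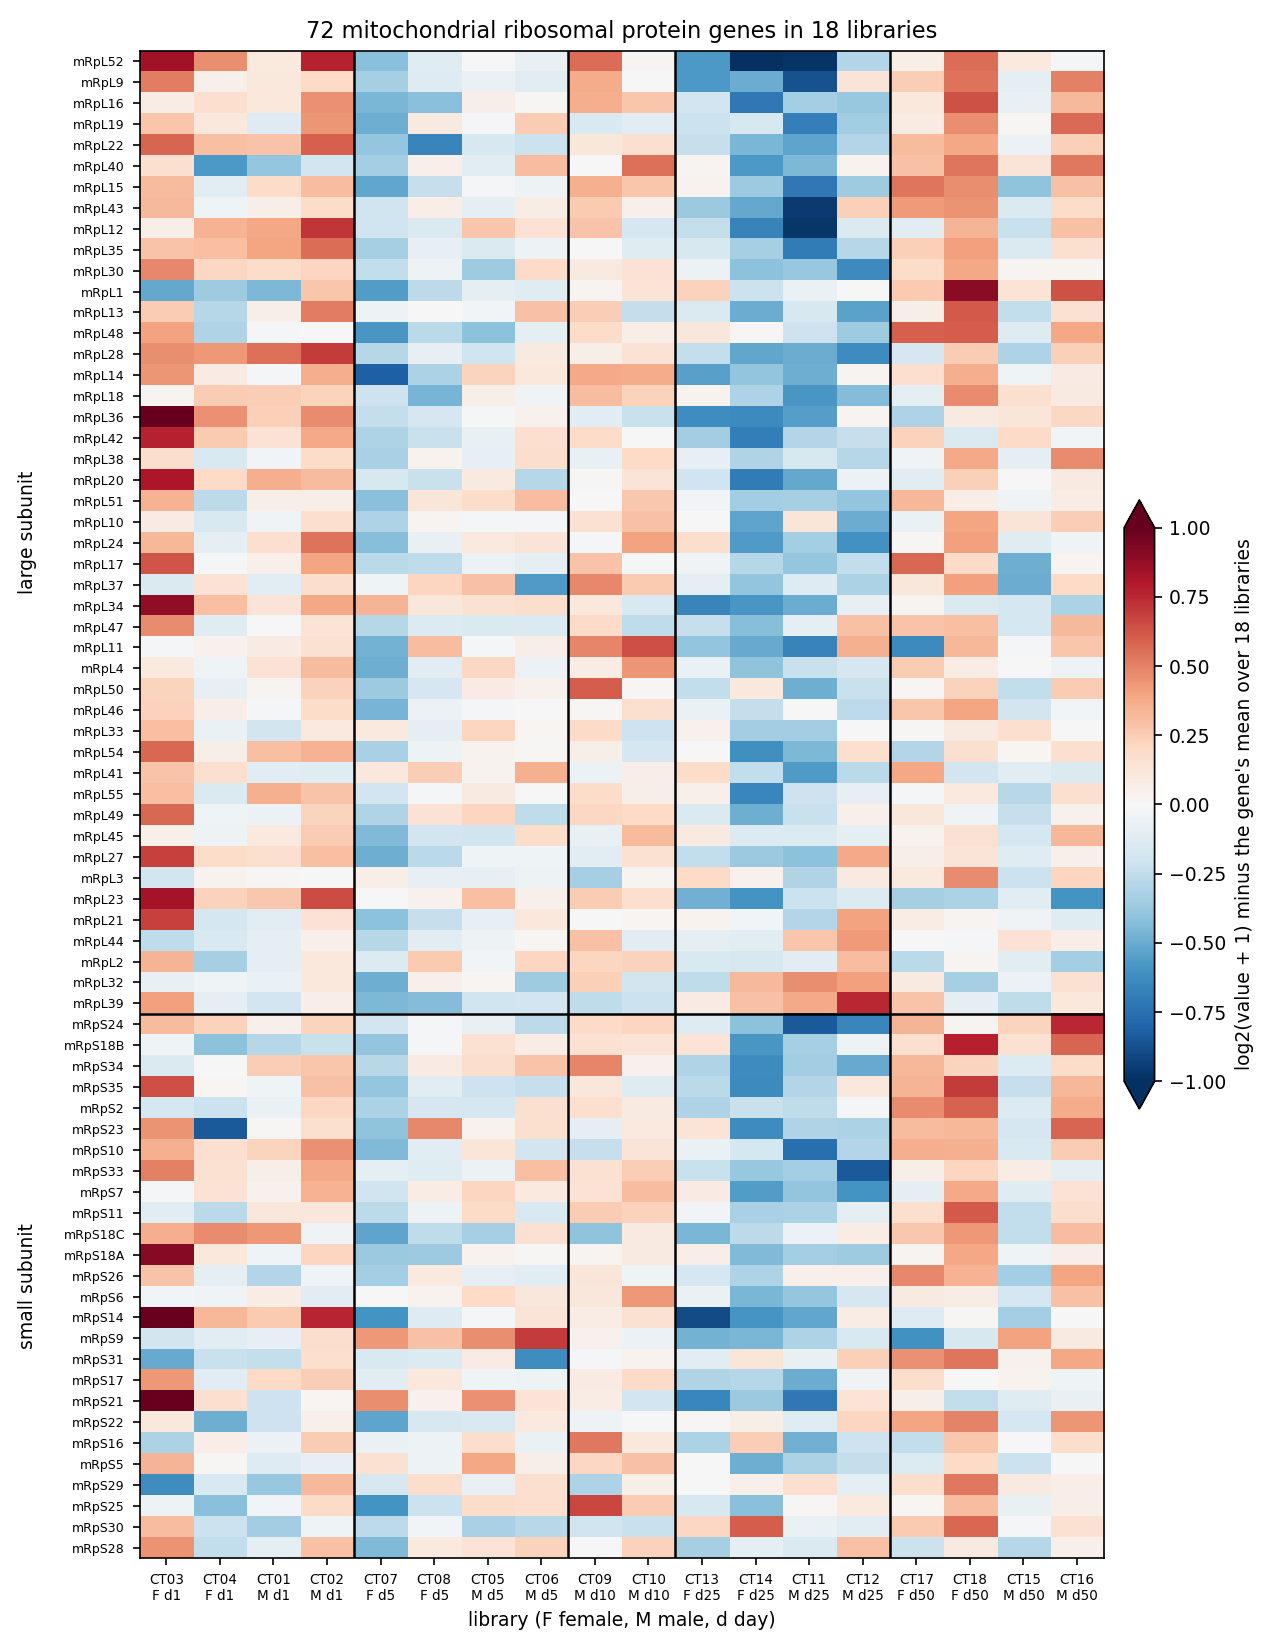
Level of each gene (rows) in each library (columns), as log2 of the value plus 1 minus the gene's mean over the 18 libraries, on a scale of -1 to 1. Rows are ordered within each subunit by the ratio of the day 50 to the day 25 mean, and vertical lines separate the ages. Most rows are low in the 4 libraries of day 25, and whole columns such as CT07, CT11 and CT14 are low while CT03 and CT18 are high.

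By age, the lowest mean was most often at day 25. Comparing the mean normalised reads of days 1, 5, 25 and 50, 52 of the 72 genes (72.2%) were lowest at day 25, against 28.8% of all genes tested. The highest mean was at day 1 for 32 genes and at day 50 for another 32, against 25.6% and 24.3% of all genes. Day 5 was lowest for 14 genes, day 1 for 4 and day 50 for 2, against 14.2%, 27.3% and 29.8% of all genes. Because the genes often moved together within a library, the 52 are not separate observations. In median level, CT12 (-0.10) and CT13 (-0.13) of day 25 were near CT15 (-0.11) of day 50. CT07 of day 5 was lower (-0.31). Without CT16 and CT18, 51 genes were lowest at day 25, against 27.1% of all genes, and the highest mean was at day 1 for 42 genes and at day 50 for 18.

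Changes between ages were tested with limma on log2 of the value plus 1, over all 14663 genes that passed the filter, as the mean of the female and the male change. A gene was called where its Benjamini-Hochberg adjusted p was below 0.1 and its fold change above 1.5 (0.585 on the log2 scale). Standard errors of the log2 fold changes of these 72 genes ranged from 0.14 to 0.28. Counts with 1 library left out are given without the share of all genes called in the same fit. They show how far a count rests on single libraries, not how the 72 genes compare with all genes. In bulk tissue, fewer cells of a type and less RNA per cell cannot be told apart, here or in any comparison that follows.

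Most of the 72 genes were lower at day 5 than at day 1, and few of them passed the test. Of the 72, 5 fell and 0 rose, against 8.78% of all genes tested that fell and 4.69% that rose, so the share called (6.94% fallen) was close to the background. The median log2 fold change of the 72 genes was -0.22, against 0.03 for all genes, and 59 of 72 were below 0. The genes that fell were *mRpS14*, *mRpL22*, *mRpL52*, *mRpL36* and *mRpL28*. In either direction 21 genes (29.2%) had an unadjusted p below 0.05 by limma, against 25.2% of all genes. edgeR and DESeq2 also gave 5 fallen and 0 risen genes, against 8.83% fallen and 4.49% risen of all genes by edgeR and 9.11% and 4.94% by DESeq2. All 4 day 5 libraries were below all 4 day 1 libraries for 17 genes (10.2% of all genes did this), and above them for 1, *mRpS9* (7.54%).

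*mRpL22* (X, 16783933 to 16785092 of BDGP6, plus strand) encodes a relative of bacterial L22, which lines the tunnel through which the new protein leaves the ribosome. Its day 5 libraries held 316 and 261 normalised reads in females and 371 and 356 in males, against 619 and 509 in females and 505 and 626 in males at day 1. The groups did not overlap (log2 fold change -0.80 ± 0.14 SE, limma adjusted p = 0.0011). *mRpS14* (X, 19479382 to 19480238, minus strand) encodes a protein of the small subunit head. It stood at 258 and 359 in females and 387 and 428 in males at day 5, against 1034 and 493 in females and 469 and 666 in males at day 1 (-0.84 ± 0.22, adjusted p = 0.015). Here 1 library, the female CT03, was far above the others, and without it the call was lost.

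*mRpL52* (2R, 7673721 to 7674400, minus strand) is of a mitochondrial family of the large subunit. It had 165 and 204 in females and 222 and 211 in males at day 5, against 397 and 306 in females and 238 and 378 in males at day 1 (-0.69 ± 0.22, adjusted p = 0.044), without overlap. *mRpL36* encodes a small protein whose bacterial relative binds zinc. It had 242 and 254 in females and 283 and 294 in males at day 5, against 656 and 393 in females and 337 and 396 in males at day 1 (-0.68 ± 0.18, adjusted p = 0.018). *mRpL28*, a relative of bacterial L28 and the most abundant of the 5, had 792 and 911 in females and 842 and 1028 in males at day 5, against 1329 and 1305 in females and 1415 and 1570 in males at day 1 (-0.66 ± 0.15, adjusted p = 0.0057). Again no day 5 library reached a day 1 library in either gene. Without CT03 (female, day 1) the number of fallen genes was 2, and without the other female library of that day, CT04, it was 11. The call of *mRpL36* was lost without CT03, that of *mRpL28* without CT05 and that of *mRpL52* without CT02, CT03 or CT07.

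*mRpS9* (3R, 7889277 to 7902667, minus strand) went the other way. It had 248 and 225 in females and 254 and 299 in males at day 5, against 162 and 169 in females and 173 and 207 in males at day 1. Its adjusted p was below 0.1 (0.050) but its log2 fold change, 0.53 ± 0.17, was under the fold limit, so it was not called. Every day 5 library was above every day 1 library.

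From day 5 to day 25, 3 of the 72 genes fell and 1 rose, against 3.93% of all genes that fell and 8.76% that rose. The median log2 fold change was -0.17, against -0.02 for all genes, and 56 of 72 genes were below 0. *mRpS9* fell by 0.82 ± 0.17 on the log2 scale (adjusted p = 0.0086). Its day 25 libraries held 132 and 133 in females and 148 and 165 in males, against 248 and 225 in females and 254 and 299 in males at day 5. These groups did not overlap. *mRpL34* (2R, 16098948 to 16099337, plus strand), a small relative of bacterial L34, had 116 and 123 in females and 131 and 174 in males at day 25, against 234 and 200 in females and 205 and 208 in males at day 5 (-0.65 ± 0.18, adjusted p = 0.029). Its groups did not overlap either, and its call was lost without CT11.

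*mRpS21* (3R, 13381276 to 13381809, minus strand) is related to bacterial S21, a protein of the small subunit platform. It had 109 and 133 in females and 104 and 189 in males at day 25, against 238 and 177 in females and 236 and 190 in males at day 5 (-0.68 ± 0.23, adjusted p = 0.068). The male CT12 overlapped the day 5 range, and the call was lost when any of 6 libraries was left out. With CT11 left out 1 gene fell, without CT12 6 did and without CT13 5 did, all 3 libraries being of day 25.

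The 1 gene that rose was *mRpL39* (3L, 14997981 to 14999666, minus strand), of a mitochondrial family of the large subunit. It had 465 and 539 in females and 571 and 741 in males at day 25, against 320 and 324 in females and 383 and 383 in males at day 5. The groups did not overlap (log2 fold change 0.70 ± 0.16, adjusted p = 0.013). All 4 day 25 libraries of *mRpL39* lay above its male day 10 libraries (367 and 377) too. All 4 day 25 libraries were below all 4 day 5 libraries for 7 genes (6.82% of all genes) and above them for 1, *mRpL39* (7.15%).

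Day 10 was sampled in males, which divides the interval from day 5 to day 25 in that sex. Between days 5 and 10, 0 of the 72 genes and 0% of all genes were called in either direction by limma, with 1 of the 72 (1.39%) at an unadjusted p below 0.05, against 6.7% of all genes, and the median log2 fold change of the 72 was 0.11. By edgeR and DESeq2 the counts were 0 as well, against 0.0955% of all genes risen and 0.293% fallen by DESeq2. Between days 10 and 25, 13 genes fell and 1 rose, against 12.2% of all genes that fell and 16.8% that rose, and the median was -0.39. The strongest falls were those of *mRpS24*, with 46.6 and 53.1 at day 25 against 96.1 and 98.0 at day 10 (-0.95 ± 0.30, adjusted p = 0.037), and *mRpL52*, with 112 and 181 against 327 and 227 (-0.93 ± 0.31, adjusted p = 0.044). *mRpL39* was the gene that rose, with 571 and 741 against 367 and 377 (0.80 ± 0.23, adjusted p = 0.024). These groups hold 2 libraries each and do not overlap in these 3 genes, and the day 25 libraries are the 2 with the fewest reads. Without CT12 the number of fallen genes was 0, without CT10 it was 3 and without CT09 it was 4, and *mRpL39* was not called without CT10 or CT12.

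From day 25 to day 50 the genes were mostly higher. Of the 72, 11 rose and 0 fell, against 9.78% of all genes tested that rose and 17.4% that fell, so 15.3% of these genes rose. The median log2 fold change was 0.37, against -0.04 for all genes, and 66 of 72 genes (91.7%) were above 0, against 48.0% of all genes. Both sexes were above 0 for 60 of the 72 genes (83.3%), against 36.2% of all genes. By limma 36 of the 72 genes (50%) had an unadjusted p below 0.05 in either direction, against 41.8% of all genes. edgeR gave 9 risen genes, against 10% of all genes, and DESeq2 gave 10, against 10.2%, and by both tools 0 fell, against 17.3% and 17.8%. At an adjusted p below 0.1 with no limit on the fold change, 31 of the 72 rose and 1 fell, against 17.9% and 20.7% of all genes. These counts include CT16 and CT18 and are not given without them, where the median log2 fold change of the 72 was 0.25. For 13 genes all 4 day 50 libraries were above all 4 day 25 libraries, against 11% of all genes, and for 0 they were below, against 8.93%.

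**Figure D3:**
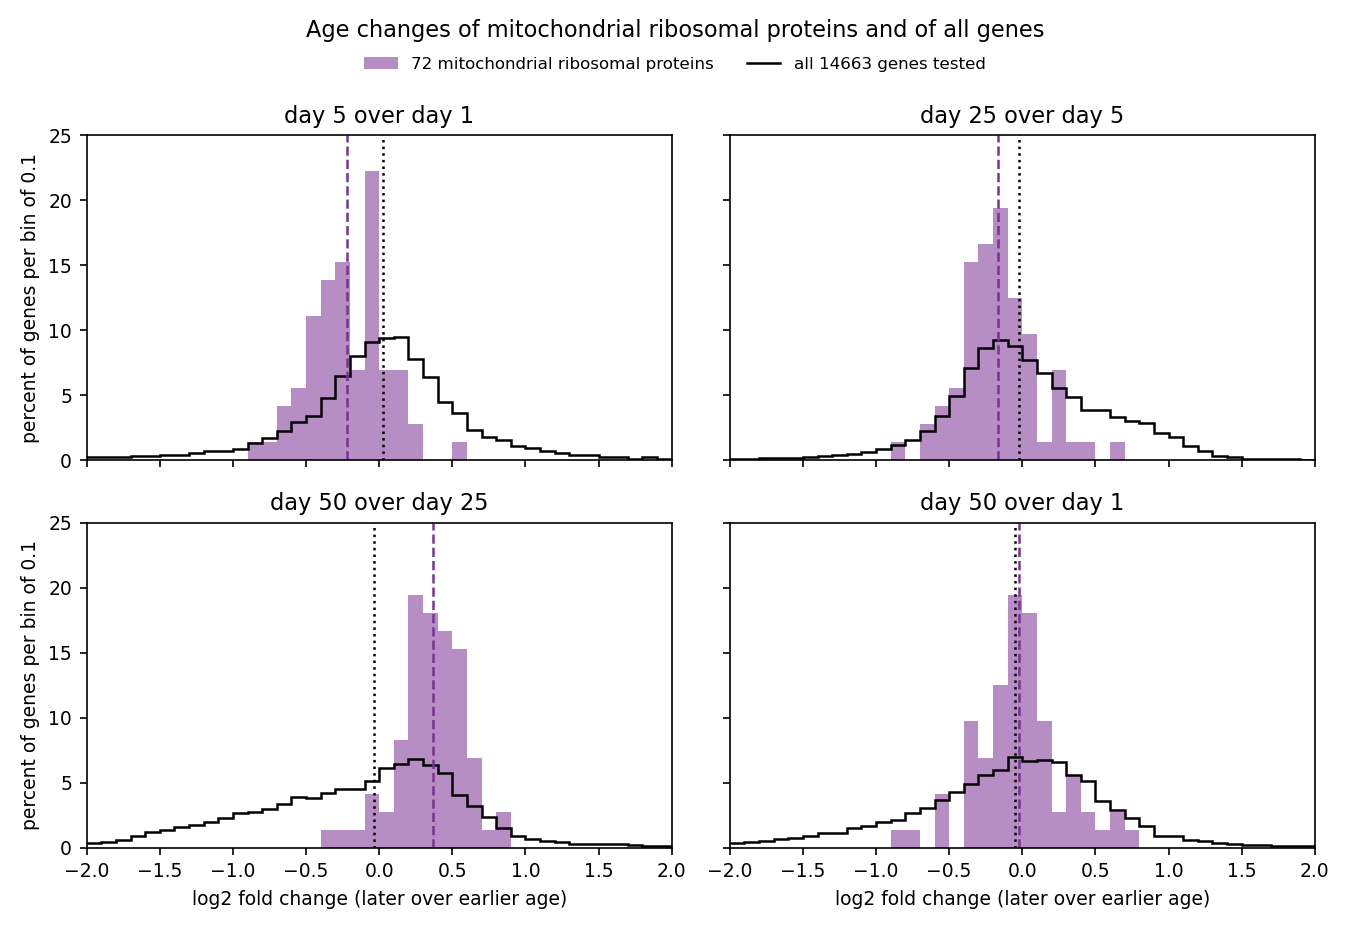
Distribution of log2 fold changes between ages (x axis, later over earlier) for the 72 genes (filled) and for all 14663 genes tested (line), as percent of genes per bin of 0.1 (y axis). Dashed lines mark the median of the 72 genes and dotted lines that of all genes. The 72 genes lie to the left of all genes for day 5 over day 1 (medians -0.22 and 0.03) and to the right for day 50 over day 25 (0.37 and -0.04), and close to them for day 50 over day 1 (-0.02 and -0.05).

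The gene with the largest rise from day 25 to day 50 among the 72 was *mRpL52*, which had also fallen from day 1 to day 5. It had 231 and 328 in females and 238 and 220 in males at day 50, against 149 and 109 in females and 112 and 181 in males at day 25 (0.89 ± 0.22, adjusted p = 0.010). The groups did not overlap, and the 2 intervals in which the gene was called share no library. *mRpS24* (3R, 24162829 to 24163545, minus strand) had 106 and 85.5 in females and 98.1 and 142 in males at day 50, against 76.9 and 63.2 in females and 46.6 and 53.1 in males at day 25 (0.84 ± 0.21, adjusted p = 0.012). *mRpL22* had 513 and 542 in females and 397 and 488 in males at day 50, against 353 and 300 in females and 286 and 336 in males at day 25 (0.60 ± 0.14, adjusted p = 0.0095). Neither gene overlapped between these ages. *mRpL22* and *mRpL52* were the 2 genes of the 72 called in opposite directions in 2 intervals for both sexes together.

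*mRpL16* (X, 1890256 to 1891482, plus strand), whose bacterial relative helps to position the tRNA in the A site, had 457 and 661 in females and 403 and 532 in males at day 50, against 371 and 258 in females and 336 and 327 in males at day 25 (0.65 ± 0.16, adjusted p = 0.011). *mRpL9*, related to an elongated protein at the base of the L1 stalk in bacteria, had 387 and 475 in females and 306 and 462 in males at day 50, against 218 and 230 in females and 177 and 357 in males at day 25 (0.76 ± 0.21, adjusted p = 0.017). *mRpL16* showed no overlap, whereas 1 male library of day 25 (CT12) reached into the day 50 range of *mRpL9*. *mRpL19*, which faces the small subunit in bacteria, had 307 and 400 in females and 293 and 432 in males at day 50, against 250 and 259 in females and 180 and 227 in males at day 25 (0.63 ± 0.19, adjusted p = 0.025).

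The other 5 that rose were *mRpL43*, *mRpL40* and *mRpS34* of mitochondrial families, *mRpS18B*, which is 1 of the 3 animal relatives of bacterial S18, and *mRpL12*, the stalk protein that binds translation factors. *mRpL43* had 326 and 330 in females and 219 and 275 in males at day 50, against 187 and 170 in females and 124 and 286 in males at day 25 (0.63 ± 0.21, adjusted p = 0.041). The 4 remaining log2 fold changes lay between 0.59 (*mRpL12*, adjusted p = 0.046) and 0.62 (*mRpS18B*, adjusted p = 0.037). Of the 6 genes below 0, *mRpL39* was the lowest. It had 535 and 409 in females and 368 and 473 in males at day 50, against 465 and 539 in females and 571 and 741 in males at day 25 (-0.37 ± 0.16, adjusted p = 0.093, under the fold limit). The 2 changes of *mRpL39*, day 25 over day 5 and day 50 over day 25, share the day 25 libraries.

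How many genes rose between days 25 and 50 depended on which libraries were included, while the direction of the median did not. Without CT16 and CT18, 3 genes rose, against 4.77% of all genes, and they were *mRpL52* (0.80, adjusted p = 0.095), *mRpS24* (0.78, adjusted p = 0.080) and *mRpL42* (0.60, adjusted p = 0.087), the last not called with all libraries (0.45). The median was then 0.25, with 62 of 72 genes above 0 and -0.04 over all genes. Both sexes were above 0 for 62.5% of the 72 genes in that fit, against 31.4% of all genes, and 9 had an unadjusted p below 0.05, against 26.1% of all genes. With 2 libraries of day 50 against 4 of day 25, 14 genes were higher without overlap, against 13.9% of all genes, and 0 were lower, against 13.1%. Leaving out 1 library gave 3 risen genes without CT16, 4 without CT14, 6 without CT11 or CT18, 17 without CT12, 18 without CT13 and 20 without CT15, with medians of 0.31 to 0.44 over all 18 such fits. Only *mRpL52* and *mRpS24* of the 11 were called in every one of these fits. For the fits with 1 library left out the shares of all genes called are not given. Their counts cannot be read as particular to the 72 genes. CT11 and CT14 were the 2 libraries of day 25 with the lowest median levels of these genes, and CT16 and CT18 the 2 of day 50 with the highest.

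Over the whole span genes were called in both directions. At day 50 relative to day 1, 3 genes rose and 2 fell, against 9.21% of all genes that rose and 12.8% that fell. The median log2 fold change was -0.02, against -0.05 for all genes, with 32 genes above and 40 below 0. This comparison shares its libraries with the first and the third interval. The genes that fell were *mRpL23* and *mRpS14*, and those that rose were *mRpL1*, *mRpS18B* and *mRpL40*.

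*mRpL23* (3L, 2372844 to 2373704, minus strand) encodes a relative of bacterial L23, which lies at the exit of the tunnel. It had 266 and 269 in females and 310 and 221 in males at day 50, against 595 and 394 in females and 403 and 528 in males at day 1 (-0.84 ± 0.17, adjusted p = 0.0018). Its age means were 480 ± 98.2 at day 1, 359 ± 35.6 at day 5, 263 ± 39.2 at day 25 and 266 ± 36.6 at day 50 (SD, n = 4 each). *mRpS14* had 359 and 395 in females and 310 and 394 in males at day 50, against 1034 and 493 in females and 469 and 666 in males at day 1 (-0.80 ± 0.22, adjusted p = 0.015). No day 50 library of either gene reached a day 1 library.

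*mRpL1* (3R, 8301440 to 8302770, plus strand), the protein of the mobile L1 stalk that guides spent tRNA out of the ribosome, had 502 and 781 in females and 460 and 650 in males at day 50, against 292 and 327 in females and 306 and 508 in males at day 1 (0.74 ± 0.19, adjusted p = 0.010). *mRpS18B* had 208 and 319 in females and 207 and 279 in males at day 50, against 180 and 140 in females and 152 and 159 in males at day 1 (0.66 ± 0.21, adjusted p = 0.032), and was the 1 gene of the 72 with every day 50 library above every day 1 library (10.1% of all genes were so). For 6 genes every day 50 library was below every day 1 library (11.4% of all genes). *mRpL40* had 243 and 288 in females and 217 and 286 in males at day 50, against 222 and 132 in females and 151 and 173 in males at day 1 (0.62 ± 0.23, adjusted p = 0.060). In each of these 3 genes CT16 and CT18 held the 2 highest values of day 50.

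Without CT16 and CT18, 0 of the 72 genes rose from day 1 to day 50 by limma, against 7.04% of all genes, with log2 fold changes of 0.46 for *mRpL1* (adjusted p = 0.18), 0.40 for *mRpS18B* (adjusted p = 0.31) and 0.46 for *mRpL40* (adjusted p = 0.32). In the same libraries 1 gene was higher and 13 were lower at day 50 than at day 1 without overlap, against 14.7% and 16.4% of all genes. In the same fit 4 fell, against 10.8% of all genes, namely *mRpL28* (-0.78), *mRpL23* (-0.72), *mRpL36* (-0.69) and *mRpS14* (-0.92). Leaving out 1 library gave 0 risen genes without CT18, 1 without CT16 or CT01 and 5 without CT02. It gave 1 fallen gene without CT03 and 4 without CT01, CT04, CT16 or CT18.

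**Figure D4:**
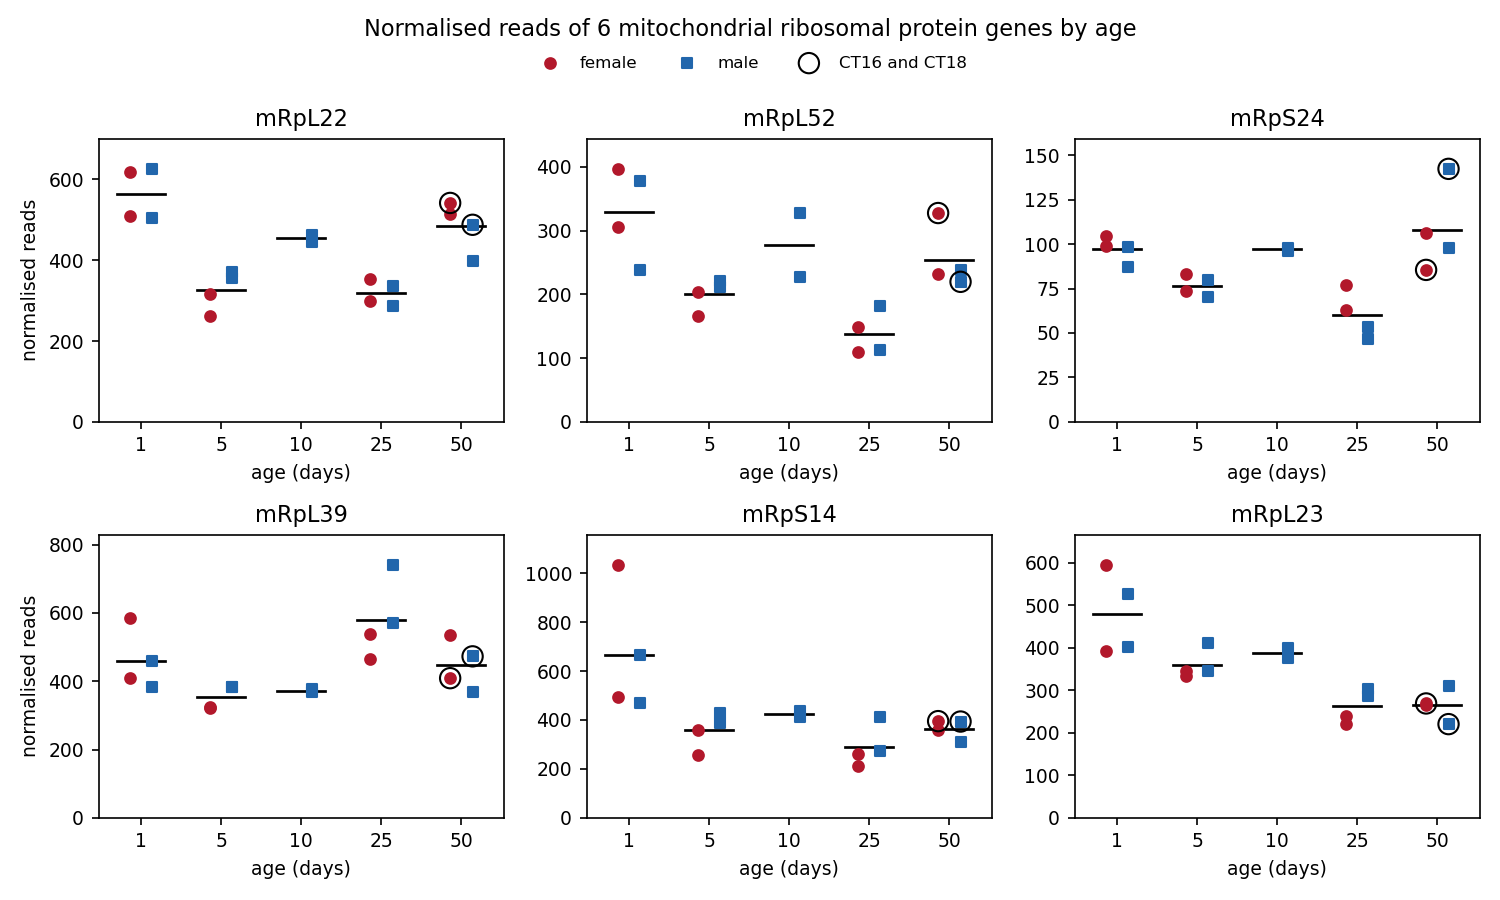
Normalised reads (y axis, from 0) of 6 genes in each library by age in days (x axis), with females as circles left of males as squares. Horizontal bars are the mean of the libraries of an age (n = 4, day 10 n = 2, males only), and open rings mark CT16 and CT18. *mRpL22*, *mRpL52* and *mRpS24* are lower at day 25 than at day 50 in every library, *mRpL39* has its highest mean at day 25, and *mRpS14* and *mRpL23* have theirs at day 1.

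No gene of the 72 passed the test between the sexes. With females over males averaged over days 1, 5, 25 and 50, 0 of the 72 were called in either direction by limma, against 2.58% of all genes higher and 0.511% lower in females, and 4 of the 72 (5.56%) had an unadjusted p below 0.05, against 12.7% of all genes. edgeR and DESeq2 called 0 as well, against 2.61% of all genes higher and 0.723% lower by edgeR and 3.03% and 1.01% by DESeq2. The median log2 fold change was -0.01, against -0.04 for all genes. Without CT16 and CT18 the median of the 72 was -0.007. *mRpS30* (0.31, 95% interval 0.08 to 0.54, adjusted p = 0.17) and *mRpS9* (-0.32, -0.57 to -0.07, adjusted p = 0.22) lay at the ends of the range. With days 1, 5 and 25 alone the count was also 0, against 2.73% and 0.409% of all genes, with 3 of the 72 (4.17%) at an unadjusted p below 0.05, against 10.6% of all genes. At single ages limma called 0 of the 72, against 0.0273% of all genes higher and 0.0205% lower on day 1. For day 5 these shares were 0.505% and 0.116%, for day 25 they were 0.0546% and 0.13%, and for day 50 they were 0% and 0%. Genes of the 72 with an unadjusted p below 0.05 numbered 1 for day 1, 2 for day 5, 2 for day 25 and 3 for day 50, against 8.72%, 7.8%, 7.41% and 10.5% of all genes. The medians were -0.01 at day 1, -0.19 at day 5, -0.03 at day 25 and 0.15 at day 50, the last being 0.18 without CT16 and CT18. On the X chromosome lie 11 of the 72 genes, and their median was -0.003 and that of the 61 others -0.01 in females over males.

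Within females, 9 genes fell from day 1 to day 5 and 0 rose, against 6.25% and 3.73% of all genes, led by *mRpS14* (-1.23 ± 0.31, adjusted p = 0.024) and *mRpL36* (-1.03 ± 0.26, adjusted p = 0.024). Without CT03 or CT07 that count was 1 and without CT08 it was 4. From day 5 to day 25, 0 changed by limma, against 0.0818% of all genes higher and 0.164% lower, with 6 of the 72 (8.33%) at an unadjusted p below 0.05, against 9.15% of all genes. From day 25 to day 50, 7 rose and 0 fell, against 2.88% and 3.99% of all genes, led by *mRpL52* (1.11 ± 0.31, adjusted p = 0.075) and *mRpS35*, a gene of a mitochondrial family with 530 and 681 at day 50 against 348 and 269 at day 25 (0.97 ± 0.26, adjusted p = 0.074). Without CT18 or CT14 that count was 0, without CT17 it was 3 and without CT01 or CT02, which change the shared spread alone, it was 4. Day 50 relative to day 1 gave 5 risen and 3 fallen genes, against 8.68% and 10.4% of all genes, and without CT18 0 rose and 1 fell. Without CT03 2 rose and 0 fell, without CT04 3 rose and 7 fell, and without CT17 1 fell. *mRpL1* (1.02 ± 0.27, adjusted p = 0.022) and *mRpL36* (-0.94 ± 0.26, adjusted p = 0.026) had the largest of these changes.

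Within males, 2 genes fell from day 1 to day 5, *mRpL28* (-0.68 ± 0.21, adjusted p = 0.074) and *mRpL22* (-0.63 ± 0.20, adjusted p = 0.097), and 0 rose, against 5.75% and 1.49% of all genes, and neither was called without CT01, CT02 or CT05 or with TMM scaling. With any 1 of CT06 to CT10, CT17 or CT18 left out, 1 fell. From day 5 to day 25, 4 fell and 1 rose, against 5.46% and 9.25% of all genes, led by *mRpS9* (-0.82 ± 0.24, adjusted p = 0.046) and *mRpL39* (0.76 ± 0.23, adjusted p = 0.048). Without CT12 or CT06 both counts were 0, without CT11 1 fell and without CT05 0 rose. From day 25 to day 50, 3 rose and 1 fell, against 8.17% and 9% of all genes, namely *mRpS24* (1.23 ± 0.30, adjusted p = 0.027), *mRpL19* (0.81 ± 0.27, adjusted p = 0.070) and *mRpL18*, and *mRpL39* (-0.64 ± 0.23, adjusted p = 0.082). Without CT16 or CT12 these counts were 0, and without CT15 0 fell. Day 50 relative to day 1 gave 2 fallen genes, *mRpL23* (-0.82 ± 0.24, adjusted p = 0.034) and *mRpL28* (-0.66 ± 0.21, adjusted p = 0.049), and 0 risen ones, against 9.38% and 5.76% of all genes, and without CT02 the count was 0 and without CT01, CT15 or CT16 it was 1.

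That a gene was called in 1 sex is no difference between the sexes. The test of the difference, female change minus male change, found 0 of the 72 genes past an adjusted p of 0.1 in each of the 4 age comparisons by limma, edgeR and DESeq2, and 0% of all genes by limma. At an unadjusted p below 0.05 by limma there were 2 of the 72 (2.78%) for day 5 over day 1, against 2.88% of all genes, and 1 (1.39%) each for day 25 over day 5 and day 50 over day 25, against 4.66% and 4.28%. For day 50 over day 1 there were 2 (2.78%), against 9.96%. The median differences over the 72 genes were -0.20, 0.18, 0.18 and 0.12 in the same order, against 0.03, -0.03, -0.01 and 0.02 over all genes. Without CT16 and CT18 the test again found 0 of the 72 in both comparisons with day 50, with 4 and 3 at an unadjusted p below 0.05, against 7.23% and 11.9% of all genes, and medians of 0.21 and 0.21.

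Both subunits held called genes in each of the 3 successive intervals. From day 25 to day 50 the median log2 fold change was 0.39 for the 46 large subunit genes (8 rose) and 0.35 for the 26 small subunit genes (3 rose). Over all genes the median was -0.04 and 9.78% rose. From day 1 to day 5 the subunit medians were -0.27 (4 fell) and -0.06 (1 fell), against 0.03 over all genes, of which 8.78% fell. From day 5 to day 25 they were -0.18 (1 rose, 1 fell) and -0.16 (2 fell), against -0.02 over all genes. Of all genes 8.76% rose and 3.93% fell in that interval. Genes of bacterial families had medians of -0.30, -0.21 and 0.39 over the 3 intervals from day 1 to day 50 and those of mitochondrial families -0.12, -0.13 and 0.28. The 7 genes at the exit tunnel (*mRpL17*, *mRpL22*, *mRpL23*, *mRpL24*, *mRpL32*, *mRpL45* and *mRpL47*) ranged from -0.28 to 0.60 from day 25 to day 50, with only *mRpL22* of them called. The 3 stalk genes (*mRpL10*, *mRpL11*, *mRpL12*) ranged from 0.29 to 0.59, and the 3 relatives of bacterial S18 (*mRpS18A*, *mRpS18B*, *mRpS18C*) from 0.37 to 0.62. *mRpS18A* and *mRpS30*, which sit in the large subunit in mammals in spite of their names, had 0.38 and 0.08. Both are counted with the small subunit here, by symbol. When CT16 and CT18 were left out, the medians from day 25 to day 50 were 0.27 for the large and 0.25 for the small subunit. They were 0.27 for bacterial and 0.16 for mitochondrial families, against -0.04 for all genes. No difference between these groups was tested.

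Other genes of mitochondrial gene expression were counted in the same way. Among the mitochondrial ribosomal proteins with other symbols, *tko* (the S12 protein, named for the bang-sensitive mutant *technical knockout*) had 549 (CT14) to 1112 (CT03) normalised reads. *bonsai*, a relative of bacterial S15, had 166 (CT11) to 362 (CT18). Neither was called in any of the 4 comparisons, with log2 fold changes from day 25 to day 50 of 0.28 ± 0.14 (adjusted p = 0.15) and 0.43 ± 0.20 (adjusted p = 0.12). Of 9 translation factors of mitochondria, 1 rose and 1 fell from day 1 to day 5, 1 rose from day 5 to day 25 and 1 fell from day 25 to day 50. The last 2 are the same gene, *CG12413* (0.73 and -0.74), and the 2 comparisons share the day 25 libraries. Of 14 mitochondrial aminoacyl-tRNA synthetases 0 to 2 were called in each direction in these comparisons, and of 9 genes of mitochondrial transcription and RNA handling 1 was called, *mtTFB2*, lower at day 50 than at day 1 (-0.67 ± 0.28, adjusted p = 0.095). The median log2 fold changes from day 25 to day 50 were 0.26 for the factors, 0.16 for the synthetases and 0.24 for transcription and RNA handling, and without CT16 and CT18 they were -0.05, 0.04 and 0.10.

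Most RNAs of the mitochondrial genome fell between days 5 and 25. From day 5 to day 25 both ribosomal RNAs fell, *mt:lrRNA* (log2 fold change -1.89 ± 0.29, adjusted p = 0.0021) and *mt:srRNA* (-1.40 ± 0.15, adjusted p = 0.000247), as did 11 of the 13 protein genes of the mitochondrial genome (median -0.95), among them *mt:CoI* (-0.91 ± 0.20, adjusted p = 0.011). *mt:lrRNA* had 188870 to 299740 normalised reads at day 25, against 689700 to 1178700 at day 5. From day 25 to day 50 neither ribosomal RNA was called, and 2 of the 13, *mt:ATPase6* (0.90) and *mt:ATPase8* (0.80), rose, and without CT16 and CT18 5 did. The 2 genes overlap in the mitochondrial genome, so their reads may be shared.

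Nuclear genes of the respiratory chain and ATP synthase had mostly negative log2 fold changes in both intervals before day 25. From day 1 to day 5, 12 of 24 fell (median -0.59), led by *Cyt-c-p*, the cytochrome c gene (-2.12 ± 0.14, adjusted p = 3.4e-08). From day 5 to day 25, 2 of 24 fell and 0 were above 0 (median -0.41), and in males alone 6 fell in the first step (median -0.49) and 12 in the second (median -0.62). From day 25 to day 50 all 24 were above 0 (median 0.36), and 2 rose, *ox* (0.71) and *Cyt-c-p* (0.68), while without CT16 and CT18 all 24 were above 0 (median 0.33) and 1 rose. Cytosolic ribosomal proteins form the ribosome of the cytosol. From day 1 to day 5, 1 of 87 fell and 0 rose, and from day 25 to day 50, 66 of 87 rose (median 0.69), or 59 without CT16 and CT18 (median 0.67). No difference between lists was tested.

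**Figure D5:**
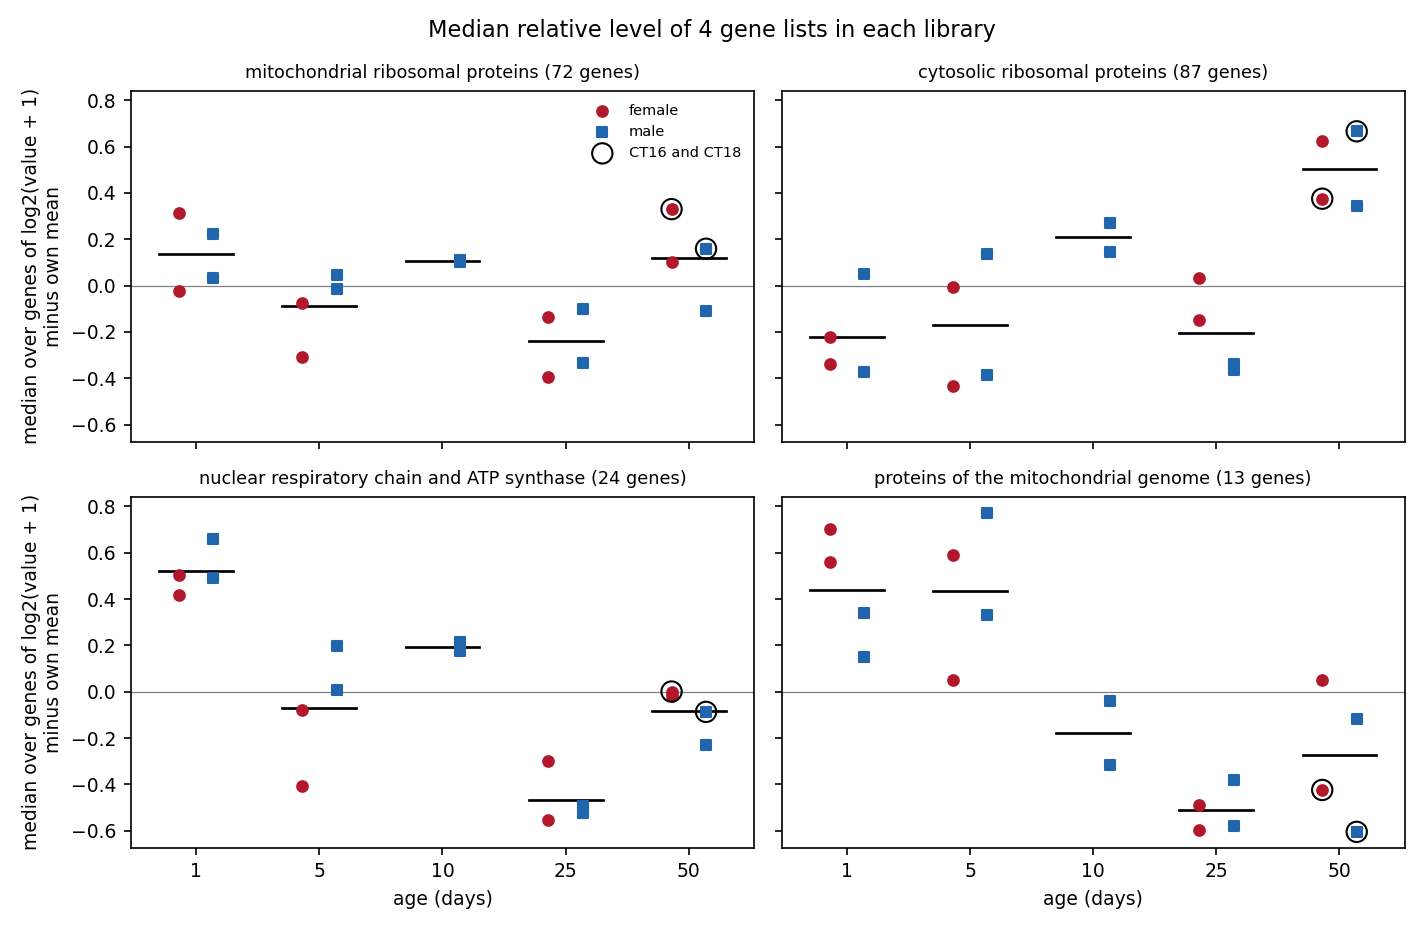
Median over the genes of 4 lists of log2 of the value plus 1 minus each gene's own mean (y axis), in each library by age in days (x axis), with females as circles left of males as squares. Bars are means of the libraries of an age, and open rings mark CT16 and CT18. Mitochondrial ribosomal proteins run from -0.39 to 0.33 with the lowest libraries at day 25, cytosolic ones are highest at day 50 (0.34 to 0.67), and the genes of the mitochondrial genome lie between -0.60 and -0.38 at day 25.

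Markers of other cell types moved in the same intervals, and their part in the results above was not tested. Of 10 muscle genes 8 fell from day 1 to day 5, with summed levels of 16650 to 20750 at day 5 against 73860 to 113100 at day 1, and 6 fell from day 5 to day 25, with sums of 12910 to 15620 at day 25 against 16650 to 20750 at day 5. Of 8 hemocyte genes 7 fell from day 1 to day 5 (sums of 3101 to 6087 against 8108 to 22930), and 5 rose from day 25 to day 50 (5554 to 5787 against 2772 to 3585). Of 9 fat body genes 6 rose from day 25 to day 50, with sums of 30530 to 84220 at day 50 against 11440 to 59800 at day 25, which overlap. At day 25 the sums were 11440 and 12504 in males and 59800 and 53757 in females. The list includes the yolk protein genes *Yp1*, *Yp2* and *Yp3*, and the 84220 was in CT16. Of 11 photoreceptor genes 7 rose from day 25 to day 50, with sums of 7722 to 164000 at day 50 against 13980 to 22560 at day 25, which overlap. The 164000 was in CT15 and was the highest sum of the 18 libraries, and the 7722 was in CT17. CT06 and CT09 also stood apart in photoreceptor genes, with sums of 140300 in CT06 against 2947 in CT05, both males of day 5, and 89950 in CT09 against 8427 in CT10, both males of day 10. When CT16 and CT18 were left out, the genes that rose from day 25 to day 50 numbered 3 for hemocytes, 4 for the fat body and 0 for photoreceptors. Of the 7 JO markers 1 rose and 1 fell from day 25 to day 50, with sums of 4124 to 4632 at day 50 against 3901 to 4467 at day 25. Only 2 of the 7 had a log2 fold change above 0, and the median was -0.34. Without CT16 and CT18, 2 were again above 0, with a median of -0.29.

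Neighbouring genes can share reads with these short genes, and strand was not stated to be used in counting. Of the 72, 42 overlap another gene in the reference annotation, all of them in exons, and 9 over more than 10% of their exon length. Of the genes called above, *mRpS24* shares 55.3% of its exon length with *TBC1d7*, *mRpS21* 48.0% with *CG8870*, *mRpS14* 35.8% with *CG32533* and *Naa15-16*, and *mRpS9* 25.1% with *ArgRS-m*. None of these partners was called where its neighbour was called for both sexes together. *mRpL18*, called in males from day 25 to day 50, shares 5.54% with *ox*. In both sexes together *ox* rose in that interval (0.71, limma adjusted p = 0.0037). The log2 fold change of *TBC1d7* was 0.40 from day 25 to day 50 (adjusted p = 0.20), and that of *ArgRS-m* was -0.16 from day 5 to day 25 (adjusted p = 0.72). For *CG8870* it was -0.35 from day 5 to day 25 (adjusted p = 0.81), and for *CG32533* and *Naa15-16* it was -0.33 and -0.25 from day 1 to day 5 (adjusted p = 0.51 and 0.46). From day 1 to day 50, where *mRpS14* also fell, *CG32533* had -0.12 (limma adjusted p = 0.79). *Naa15-16* had 0.58 there (limma adjusted p = 0.035), under the fold limit. Among the 30 genes that overlap no other, 6 rose from day 25 to day 50, against 9.78% of all genes. Their median was 0.35, or 0.24 without CT16 and CT18. From day 1 to day 5, 3 fell (median -0.23), against 8.78% of all genes. By limma 0 changed from day 5 to day 25, against 8.76% of all genes that rose and 3.93% that fell. In that interval 6 had an unadjusted p below 0.05, against 26.5% of all genes.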

How the data were processed

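RNA of pooled 2nd antennal segments was amplified with a SMART-Seq v4 kit, made into Nextera XT libraries, and sequenced. Per the labels and the study's methods, the authors aligned reads to dm6 in Partek, obtained counts per gene from HTSeq, and scaled each library's counts by its DESeq2 size factor. Versions, counting mode and strand setting are not given in the sources used here. The deposited values are therefore a normalised signal, with the authors' mean over the 18 libraries beside them. The authors' own log2 fold changes, their standard errors and test statistics (a score), and their p-values and adjusted p-values were deposited too and were not used. All values (100%) were whole multiples of 1 number per library (tolerance 0.01), from which reads were recovered for the count tests.

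Groups came from the age and sex in the labels. The main test was limma 3.58.1 (trend) on log2(value + 1) with 9 age and sex groups, in R 4.3.3, on the 14663 genes that reached 10 in 2 or more libraries. Fold changes on this scale understate the change of low genes. Adjusted p-values are Benjamini-Hochberg over these genes, and a call needed an adjusted p below 0.1 and a fold above 1.5. Comparisons of ages average both sexes, and those within a sex and the difference of the changes come from the same fit. The alternatives were count tests of the recovered reads (edgeR 4.0.16, DESeq2 1.42.0), pseudocounts of 0.5 and 5, other filters, TMM scaling, other models and limits, and leaving libraries out. The scripts for testing were checked on simulated data. Reads in genes numbered 5815182 to 14315927 per library.

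Values in every library are given for called genes, up to 6 with the largest change in each direction and comparison, up to 2 in each comparison within a sex, those called in opposite directions, and the 3 highest and 3 lowest per kb. Further genes were named after their values were seen. Symbol alone decided which genes are among the 72. The choice of these genes and of the lists was nevertheless made with earlier results of these data known. Of the 72 genes, 70 were matched by gene ID and 2 by symbol to the BDGP6 annotation, the source of coordinates, exon lengths and overlaps.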

Additional observations from a re-analysis of the deposited data

How the results depend on the processing

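No paired analysis was possible because the sample labels give no replicate numbers and nothing in the sources used here ties libraries of different groups to a shared cohort or batch. No value changed direction among the 25 calls of single genes in both sexes together, and 688 of 761 values over all alternatives kept their side of the threshold, while 73 lost it. The 6 calls that held in every alternative were *mRpL22* (day 5 over day 1), *mRpL39* and *mRpS9* (day 25 over day 5), *mRpL52* and *mRpS24* (day 50 over day 25) and *mRpL23* (day 50 over day 1). The counts moved more, and the cause was not tested beyond what each setting changes. With no fold limit, 1 gene rose and 12 fell for day 5 over day 1, against 6.66% and 11.2% of all genes. For day 25 over day 5, 1 rose and 7 fell, against 10.4% and 7.31%. For day 50 over day 25, 31 rose and 1 fell, against 17.9% and 20.7%, and for day 50 over day 1, 6 and 5 did, against 14.1% and 15.9%. The day 50 counts with no fold limit include CT16 and CT18 and are not given without them. Among the 30 genes that overlap no other, a list with fewer genes, 3 fell for day 5 over day 1, against 8.78% of all genes. For day 25 over day 5, 0 rose and 0 fell, against 8.76% and 3.93%. For day 50 over day 25, 6 rose, against 9.78%, and for day 50 over day 1, 0 fell, against 12.8%. edgeR and DESeq2 each gave 4 fallen genes for day 50 over day 1, against 12.9% and 13.3% of all genes. TMM scaling gave 0 fallen genes for males, day 5 over day 1, against 2 otherwise. Without CT16 and CT18, 3 rose for day 50 over day 25, and 0 rose and 4 fell for day 50 over day 1.

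With 1 library left out, the risen genes numbered 0 to 1 and the fallen 2 to 11 for day 5 over day 1, 1 to 1 and 1 to 6 for day 25 over day 5, 3 to 20 and 0 to 0 for day 50 over day 25, and 0 to 5 and 1 to 4 for day 50 over day 1. No share of all genes called in the same fits is given beside these counts. Where a group was left with 1 library, that library was assumed to vary like the other groups. Of the 72 genes, 18 were called in at least 1 change within males, with 5 among those without overlap and 3 to 19 with 1 library left out. In females the number was 19, with 10 at an adjusted p below 0.05, 7 among those without overlap, 9 without CT16 and CT18 and 9 to 23 with 1 library left out. These numbers called in at least 1 change stand without the share of all genes, so they are not a result about the 72. In males from day 10 to day 25 alone, 16.8% of all genes rose and 12.2% fell by limma. In females from day 1 to day 50 alone, 8.68% rose and 10.4% fell. The median over the 72 genes for day 50 over day 25 stayed between 0.25 and 0.44 under all alternatives, while that for day 50 over day 1 crossed 0, from -0.14 to 0.03. TMM scaling moved the median of all genes by at most 0.028. With 2 libraries per age and sex, and standard errors of at least 0.14 for the comparisons of both sexes, small changes were not detectable at this depth and number.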
